A study of Arabidopsis thaliana with 7 samples.

Results

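The plastid-encoded RNA polymerase of Arabidopsis thaliana was followed through 10 nuclear genes for proteins that bind to it, in seedlings of the wild type (WT) and of the hon45 mutant, which affects HON4 and HON5, a pair of chromatin architectural proteins. The 10 genes are pTAC2, pTAC3, pTAC6, pTAC7, pTAC10, pTAC12 and pTAC14 (pTAC for plastid transcriptionally active chromosome), the iron superoxide dismutases FSD2 and FSD3, and the fructokinase-like gene FLN1. They were chosen by identifier from 32548 genes in the count table, with the difference between hon45 and WT already known, so that difference is given below as a description and is not tested for them. All 10 were counted in every library and all 10 passed the filter on low counts, which kept 29226 genes.

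RNA was sequenced from whole seedlings 10 days after germination, grown on agar medium at 22 °C in long days of 16 h of light and 8 h of darkness. There were 2 libraries of WT (Col-0) and 2 of the hon45 mutant. Mutant alleles, and whether each library came from a separate culture, are not stated in the labels, so the spread between the 2 libraries of a genotype may be technical, and every p-value below measures that spread alone. Single mutants were not part of the RNA comparison, so what HON4 and HON5 each contribute cannot be told apart.

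Chloroplasts transcribe their genome with 2 kinds of RNA polymerase. The plastid-encoded polymerase has a bacterial-type core made from the plastid genes rpoA, rpoB, rpoC1 and rpoC2, is directed to promoters by nuclear-encoded sigma factors, and transcribes most photosynthesis genes. Phage-type polymerases encoded in the nucleus serve other plastid genes, among them rpoB. In plants the bacterial-type core is surrounded by 12 nuclear-encoded associated proteins, and mutants that lack them are mostly pale or albino. They are the 10 described here, the thioredoxin TRXz and the MurE ligase-like protein MURE.

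The libraries held 53858439 to 63543079 counts. As a check of the genotype labels, HON5 stood at 97.7 and 91.7 CPM (counts scaled to a common library size) in WT and at 13.97 and 15.9 CPM in hon45, and HON4 at 99.3 and 104 CPM against 39.2 and 41.0 CPM. Over all tested genes 1199 passed the edgeR quasi-likelihood test at an adjusted p under 0.05. This background was 4.10% of tested genes, made up of 2.48% higher and 1.63% lower in hon45. An unadjusted p under 0.05 in that test was far more common, at 5237 of the 29226 tested genes. The log2 difference lay above 0 for 13062 of the 29226. The counts given below for single lists stand beside these. WT replicate 1 was low for the polymerase-associated genes, though not for them alone. All 10 were lower there than in WT replicate 2, against 49.5% of all tested genes. So were 43 of the 64 genes in the lists of related genes described below, among them 6 of 6 sigma factors. Of the marker genes, 10 of 10 for leaf photosynthetic cells, 3 of 10 for root and 1 of 7 for dividing cells were lower there.

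All 10 genes were higher in both hon45 libraries than in either WT library, while 23.1% of all tested genes had their libraries arranged this way. Their log2 differences ran from 0.28 for FLN1 to 0.65 for pTAC10, with a median of 0.47, and the median over all tested genes was −0.04. The 7 pTAC genes had a median of 0.60. The summed level of the 10 genes was 124 and 149 CPM in WT and 188 and 192 CPM in hon45, a ratio of mean levels of 1.39. Of the 10, 6 were among the genes called higher in hon45, namely pTAC2, pTAC3, pTAC6, pTAC7, pTAC10 and pTAC14; because the same contrast chose them, nothing is read from that count against the background of 2.48%.

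**Figure D1:**
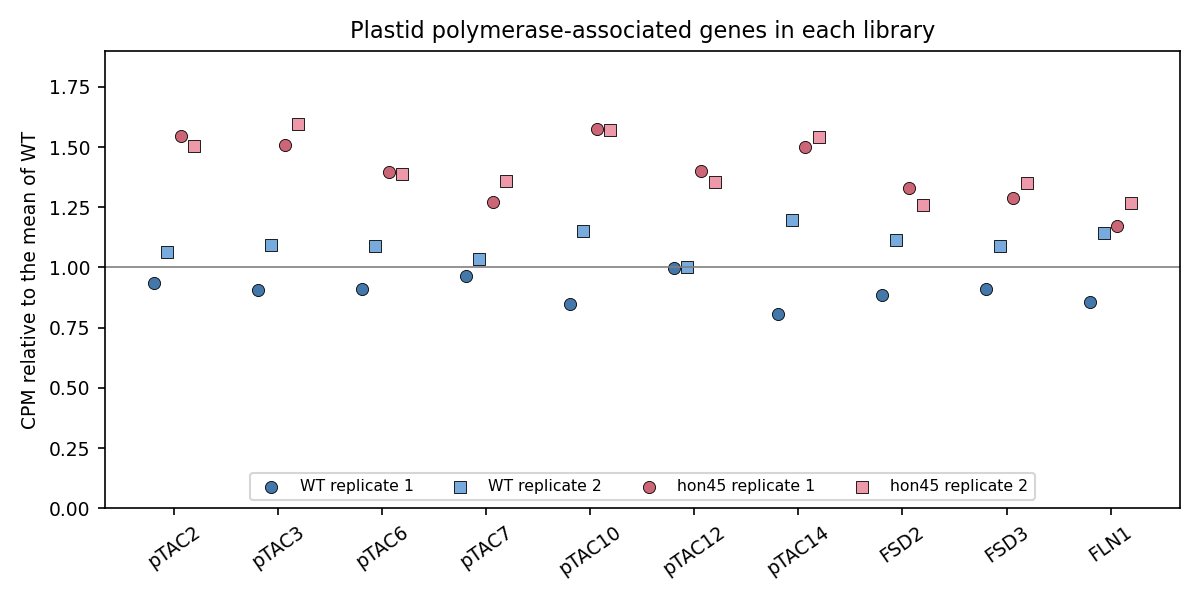
CPM of each of the 10 genes in each library (y axis, divided by the mean of the 2 WT libraries of that gene; points are single libraries). In each gene both hon45 points lie above both WT points, the pair of hon45 points is close together, and WT replicate 1 is the lowest, with pTAC12 as the gene whose WT points nearly coincide.

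Among the proteins that handle nucleic acids, pTAC3 carries a SAP domain, a DNA-binding fold. Its gene (AT3G04260; TAIR10 chromosome 3, 1123023 to 1127515) was at 10.5 and 12.6 CPM in WT and at 17.4 and 18.4 CPM in hon45. That is a log2 difference of 0.63 (SE 0.12), or 1.55-fold, and the gap between genotypes was wider than the gap within either.

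The pTAC2 protein belongs to the pentatricopeptide repeat family, many of whose members bind RNA, and ends in a small MutS-related domain. Its gene (AT1G74850; chromosome 1, 28118849 to 28122314) was at 9.55 and 10.9 CPM in WT against 15.8 and 15.4 CPM in hon45, which is 0.61 higher on the log2 scale (SE 0.12). The lowest hon45 library thus lay well above the highest WT library.

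pTAC10 has an S1 domain, an RNA-binding fold. Its gene (AT3G48500; chromosome 3, 17962163 to 17965613) was at 4.53 and 6.13 CPM in WT and at 8.39 and 8.36 CPM in hon45. Its log2 difference of 0.65 (SE 0.16) was the highest of the 10 genes, at low counts: 245 in WT replicate 1, the smallest count of any of the 10 genes in any library, and 507 in hon45 replicate 1.

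pTAC14 has a SET domain, known from protein methyltransferases. The gene (AT4G20130; chromosome 4, 10878887 to 10881945) was at 11.1 and 16.5 CPM in WT against 20.7 and 21.2 CPM in hon45, which is 0.60 higher on the log2 scale (SE 0.14). Its WT libraries were the farthest apart of the 10 genes, at 0.57 on the log2 scale. Against WT replicate 2 alone, the hon45 mean was higher by 0.35, and against WT replicate 1 alone by 0.92.

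pTAC12, also called HEMERA, is found in plastids and in the nucleus, where it acts in phytochrome signalling. The gene (AT2G34640; chromosome 2, 14581886 to 14584699) was at 5.41 and 5.42 CPM in WT and at 7.60 and 7.35 CPM in hon45. Its log2 difference was 0.46 (SE 0.15), and it hardly depended on the WT library used, at 0.46 against either. By RefSeq gene spans it shares 22 bases with GPS1, which stood at 31.9 and 33.96 CPM in WT against 33.8 and 35.8 CPM in hon45. GPS1 was thus more abundant in counts than pTAC12, and the spans in the FPKM files, printed above, share 0 bases.

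pTAC6 and pTAC7 are further subunits of the associated group. pTAC6 (AT1G21600; chromosome 1, 7570886 to 7573846) was at 28.4 and 34.1 CPM in WT and at 43.6 and 43.4 CPM in hon45, which is 0.48 higher on the log2 scale (SE 0.11). pTAC7 (AT5G24314; chromosome 5, 8277700 to 8279964) was at 28.0 and 30.2 CPM in WT and at 37.0 and 39.5 CPM in hon45, which is 0.40 higher on the log2 scale (SE 0.10). Neither gene's genotypes overlapped. By RefSeq gene spans pTAC6 shares 18 bases with AT1G21610, at 10.3 to 12.9 CPM over the 4 libraries, and 0 bases by the spans in the FPKM files. pTAC7 shares 225 bases with AT5G24316, at 1.11 to 1.70 CPM, and the FPKM files give both genes the same span, the one printed here, so part of the pTAC7 values is uncertain. Either neighbour was below its pTAC gene in every library.

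FSD2 and FSD3 convert superoxide to hydrogen peroxide and work as a pair at the plastid nucleoid, the body that holds the plastid DNA. FSD3 (AT5G23310; chromosome 5, 7850523 to 7852532) was at 10.7 and 12.8 CPM in WT and at 15.1 and 15.9 CPM in hon45, which is 0.40 higher on the log2 scale (SE 0.12). FSD2 (AT5G51100; chromosome 5, 20773296 to 20775701) was at 4.80 and 6.05 CPM in WT and at 7.22 and 6.84 CPM in hon45, which is 0.37 higher on the log2 scale (SE 0.16). FSD2 sat close to its WT libraries: its hon45 mean was 0.22 above WT replicate 2 on the log2 scale, where that replicate was itself 0.33 above WT replicate 1.

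FLN1 resembles fructokinases and is a partner of TRXz. The gene (AT3G54090; chromosome 3, 20028124 to 20029986) was at 10.8 and 14.5 CPM in WT and at 14.8 and 16.0 CPM in hon45, which is 0.28 higher on the log2 scale (SE 0.13). Its groups nearly touched, with hon45 replicate 1 just above WT replicate 2, and against that WT library its hon45 mean was only 0.09 higher. FLN1 and FSD2 were the members with the smallest differences, at the percentiles 87.7 and 92.7 of the log2 differences of all tested genes. pTAC10, at the other end, was at the percentile 98.7.

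The spread among libraries was one-sided. Across the 10 genes WT replicate 2 was above WT replicate 1 by 0.00 to 0.57 on the log2 scale, with a median of 0.26, whereas hon45 replicate 2 minus hon45 replicate 1 ran from −0.08 to 0.11. The median difference of the hon45 mean was 0.58 from WT replicate 1 and 0.35 from WT replicate 2. With WT replicate 1 left out, the fitted median was 0.35, with FLN1 at 0.09, and 4 of the 10 genes stayed among the calls (pTAC2, pTAC3, pTAC6 and pTAC7). With WT replicate 2 left out it was 0.58 and 8 were called. With hon45 replicate 1 or hon45 replicate 2 left out, the median was 0.49 each time, near the 0.47 from all libraries, though most calls were lost. The sizes thus changed little with either hon45 library left out. Without WT replicate 1 they fell, with pTAC10 at 0.45 and pTAC14 at 0.35.

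**Figure D2:**
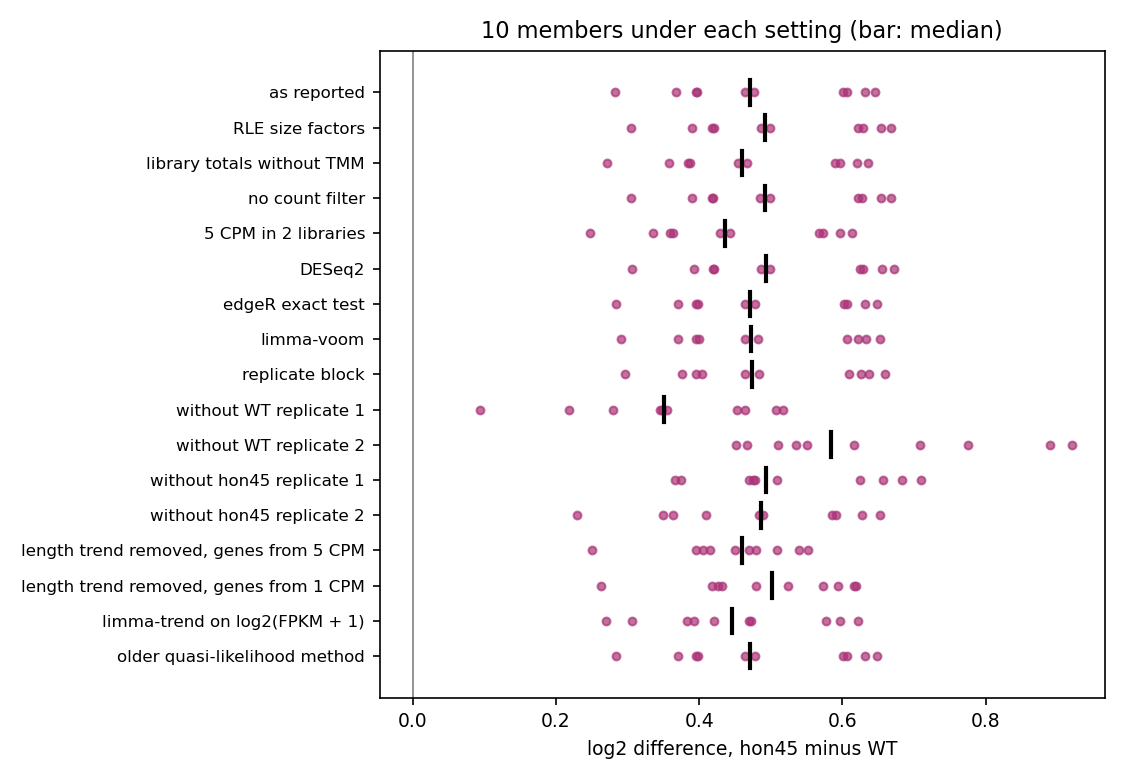
Log2 difference between hon45 and WT (x axis) of the 10 genes under each way of fitting (rows; dots are genes, black bars their median). Every dot lies to the right of 0, between 0.09 and 0.92, and the medians range from 0.35 without WT replicate 1 to 0.58 without WT replicate 2.

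Levels were compared between genes on the deposited FPKM values, which are scaled by transcript length. In WT, pTAC7 was the most abundant at 74.9 ± 3.68 FPKM (SD, n = 2), followed by pTAC6 at 28.7 ± 3.80, FSD3 at 12.9 ± 1.36, FLN1 at 10.1 ± 1.93, pTAC14 at 9.92 ± 2.96 and FSD2 at 6.90 ± 0.90. The lowest were pTAC3 at 4.18 ± 0.79, pTAC2 at 3.73 ± 0.19, pTAC12 at 3.37 ± 0.11 and pTAC10 at 2.66 ± 0.66 FPKM. The highest and the lowest of the 10 mean levels in WT thus differed 28.2-fold, although the proteins are found in the same complex. Neighbours in this order whose WT libraries overlapped were FLN1 and pTAC14, and pTAC3 and pTAC2; the other neighbours did not overlap, at 2 libraries each.

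In hon45 the order of levels was kept except that pTAC14, at 15.2 ± 0.17 FPKM, stood above FLN1, at 12.3 ± 0.33 FPKM. The span from pTAC7, at 98.7 ± 3.25 FPKM, to pTAC10, at 4.59 ± 0.19 FPKM, was 21.5-fold. On the log2(FPKM + 1) scale, which understates the differences of low genes, the 10 differences between genotypes ran from 0.27 for FLN1 to 0.62 for pTAC10, with a median of 0.45. The level of pTAC7 carries the uncertainty of the span it shares with AT5G24316.

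**Figure D3:**
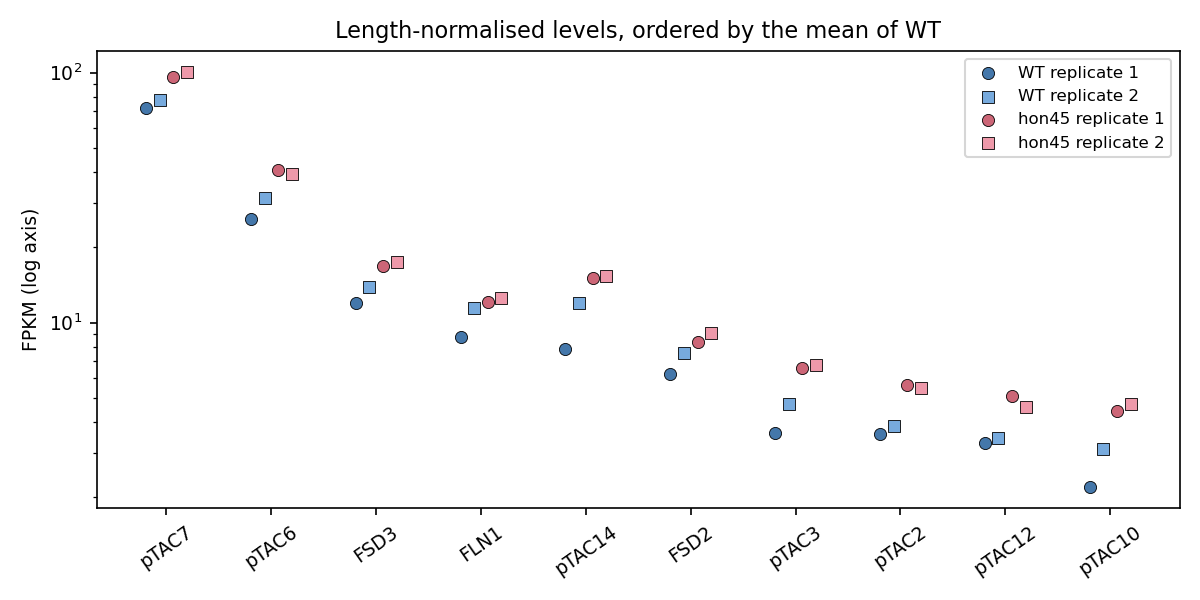
FPKM of the 10 genes in each library (log y axis), ordered by the WT mean; points are single libraries. The levels fall from 74.9 FPKM for pTAC7 to 2.66 FPKM for pTAC10 in WT, and hon45 points lie above WT points in each gene.

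The 10 genes lie on all 5 chromosomes. The transcript lengths implied by counts and FPKM together ran from 390 bases for pTAC7 to 2789 bases for pTAC2, with a median of 1317 against 1384 over all tested genes. With a trend of the log2 difference on gene length removed, the median difference of the 10 genes was 0.46 or 0.50, depending on the genes used to fit it. Single genes moved more when it was fitted on genes from 5 CPM. pTAC2 went from 0.61 to 0.45 and pTAC3 from 0.63 to 0.48, while pTAC7 went from 0.40 to 0.51. In that fit 5 of the 10 were among the calls. Of the 20 protein-coding genes that flank them, 0 passed the edgeR quasi-likelihood test. An unadjusted p under 0.05 was seen for 4 of the 20, beside 5237 of all 29226 tested genes. DESeq2 gave an adjusted p for 13 of the 20, and 0 of those passed. The flanking genes had a median log2 difference of 0.03, and 11 of the 20 lay above 0, so their differences fell on either side of no change.

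A list of 8 further genes of plastid transcription held the remaining associated proteins TRXz and MURE, FLN2, the regulators PRIN2, MRL7 and MRL7-L, and the phage-type polymerases SCA3 and RPOT2. Of the 8 0 passed the edgeR quasi-likelihood test, with 4 at an unadjusted p under 0.05 and 7 above 0; the median log2 difference was 0.28. The edgeR exact test called 1 of the 8, SCA3, and DESeq2 and limma-voom called 0. TRXz, the thioredoxin of the complex, was at 14.7 and 17.9 CPM in WT and at 20.5 and 20.4 CPM in hon45, which is 0.33 higher on the log2 scale (SE 0.12, edgeR adjusted p = 0.133). MURE was at 8.42 and 11.2 CPM in WT and at 12.6 and 12.7 CPM in hon45, which is 0.36 higher on the log2 scale (SE 0.14, edgeR adjusted p = 0.173). These are the remaining associated proteins of the 12, and both had hon45 libraries above WT libraries. So did 6 of the 8 genes in this list and 23.1% of all tested genes.

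FLN2, the paralogue of FLN1, was at 3.93 and 5.76 CPM in WT and at 7.07 and 7.12 CPM in hon45, which is 0.54 higher on the log2 scale (SE 0.18, edgeR adjusted p = 0.101). The size for FLN2 depended on the WT library used, at 0.85 without WT replicate 2 and 0.30 without WT replicate 1. With both WT libraries it passed with RLE size factors (edgeR adjusted p = 0.0363). SCA3, the phage-type RNA polymerase of plastids, was at 7.33 and 7.41 CPM in WT and at 9.53 and 10.8 CPM in hon45, which is 0.46 higher on the log2 scale (SE 0.14, edgeR adjusted p = 0.0657). SCA3 passed with RLE size factors (edgeR adjusted p = 0.0398) and in the edgeR exact test (adjusted p = 0.0296), where its difference was also 0.46 to 0.49; its adjusted p ran from 0.0296 to 0.487 over the alternatives, and that of FLN2 from 0.00181 to 0.669. Its relative RPOT2 had a log2 difference of 0.23 (SE 0.15) and the redox regulator PRIN2 of 0.17 (SE 0.12), with edgeR adjusted p-values of 0.437 and 0.493. MRL7 and MRL7-L, plastid proteins needed for polymerase activity, had log2 differences of −0.02 (SE 0.18) and 0.11 (SE 0.12), with edgeR adjusted p-values of 0.976 and 0.699; the sign for MRL7 turned under several settings.

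Sigma factors, which guide the core to its promoters, rose in 2 of 6 cases, at a background of 2.48% for all tested genes. SIG1 rose from 36.8 and 48.1 CPM in WT to 62.0 and 66.3 CPM in hon45, by 0.60 on the log2 scale (SE 0.11; adjusted p = 0.00587, edgeR quasi-likelihood). SIG2 rose from 21.2 and 33.1 CPM to 38.8 and 41.9 CPM, by 0.57 on the log2 scale (SE 0.14; adjusted p = 0.0298, edgeR quasi-likelihood). Both were low in WT replicate 1, as the polymerase-associated genes were. SIG2 was not called without WT replicate 1, at 0.28 (edgeR adjusted p = 0.157), nor by DESeq2 (adjusted p = 0.311). Neither passed without hon45 replicate 2 (edgeR adjusted p = 0.186 for SIG1 and 0.313 for SIG2), the highest values of any alternative, nor on FPKM (limma-trend adjusted p = 0.0912 and 0.146). SIG6, SIG4 and SIG3 had log2 differences of 0.43, 0.30 and 0.24, and SIG5, the light- and stress-responsive sigma factor, of 0.04 (SE 0.10).

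The other 11 pTAC genes, whose proteins were found in the same chromosome preparations but are not counted among the 12 associated proteins, had 0 calls by the edgeR quasi-likelihood test, with 5 at an unadjusted p under 0.05. DESeq2 and limma-voom each called 1, pTAC16, and the edgeR exact test called a different one, pTAC13. In all, 10 of the 11 lay above 0 and the median log2 difference was 0.18. The highest was pTAC13, at 0.48 (SE 0.15, edgeR adjusted p = 0.0734), then pTAC16 at 0.41 (SE 0.14), and the lowest was pTAC9, a DNA-binding protein also called OSB2, at −0.15 (SE 0.11). The whirly proteins pTAC1 and pTAC11 had 0.16 and 0.12. Whether these genes differ from the 10 in their response was not tested.

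**Figure D4:**
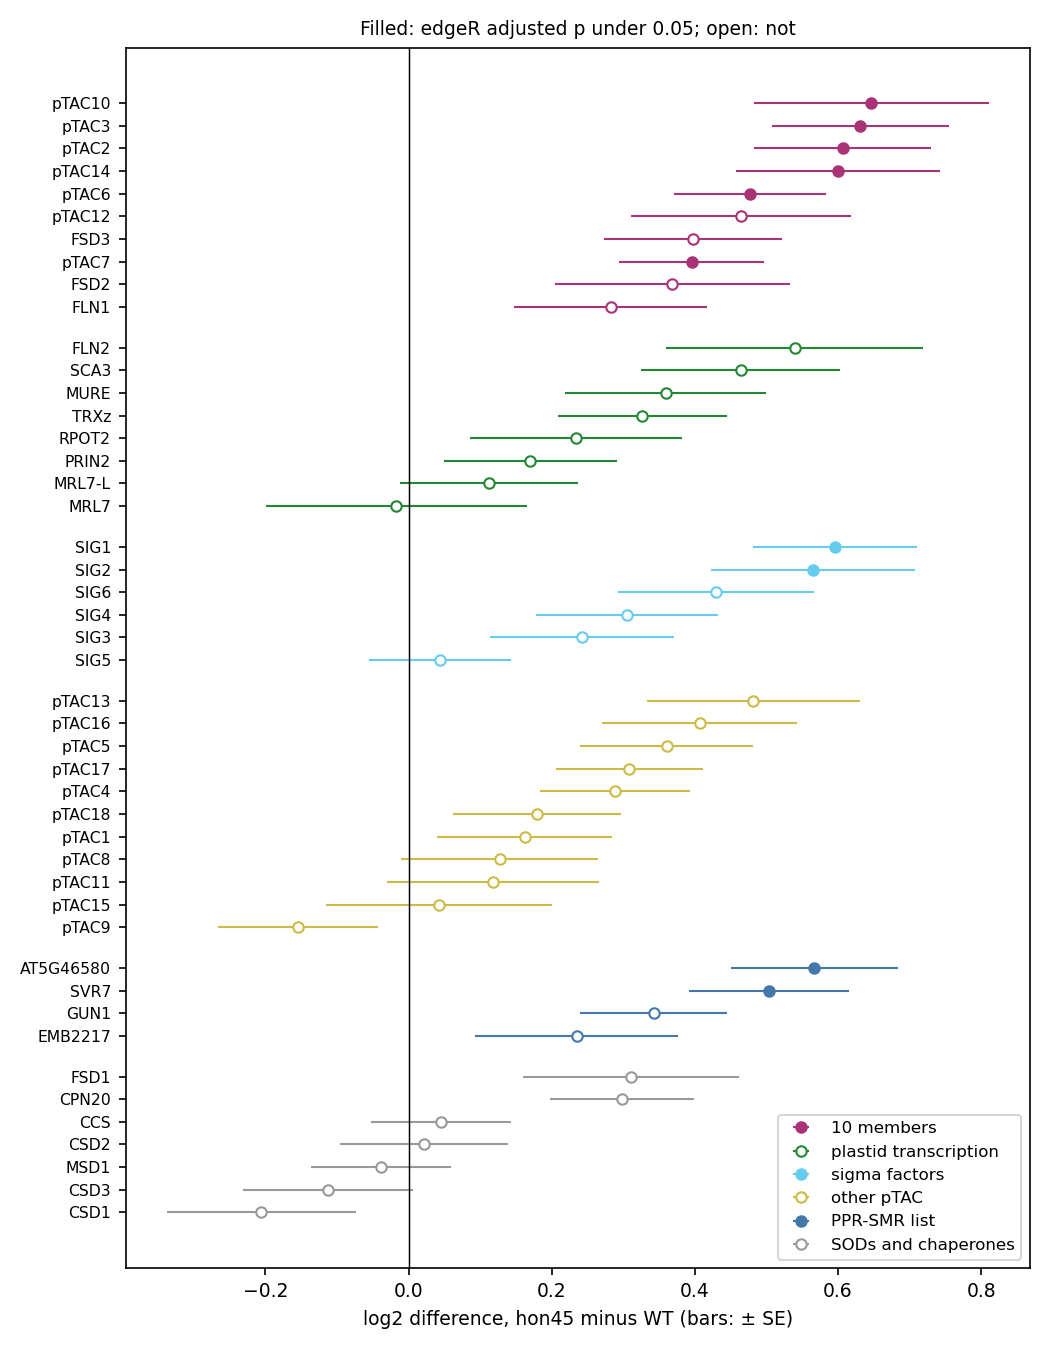
Log2 difference between hon45 and WT (x axis, with SE bars) for the 10 genes and 5 lists of related genes; filled points have an edgeR adjusted p under 0.05. The 10 genes lie between 0.28 and 0.65, SIG1, SIG2, SVR7 and AT5G46580 are the filled points outside them, and the list of superoxide dismutases and their chaperones spreads around 0 from −0.21 to 0.31.

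Relatives of the members were read for comparison. Among 4 genes listed beside pTAC2, 2 rose by the edgeR quasi-likelihood test, at a background of 2.48%, and DESeq2 called 3. SVR7, a pentatricopeptide repeat protein of plastids, rose from 19.2 and 23.5 CPM in WT to 29.99 and 30.7 CPM in hon45, by 0.50 on the log2 scale (SE 0.11; adjusted p = 0.0154, edgeR quasi-likelihood). AT5G46580 rose by 0.57 (SE 0.12, edgeR quasi-likelihood adjusted p = 0.00941). GUN1, which acts in signals from the plastid to the nucleus, had 141 and 153 CPM against 177 and 197 CPM, a log2 difference of 0.34 (SE 0.10, edgeR adjusted p = 0.0665); it was the gene that DESeq2 called in addition, and edgeR called it without WT replicate 2. EMB2217 had 7.08 and 7.40 CPM against 8.36 and 8.69 CPM, a log2 difference of 0.24 (SE 0.14, edgeR adjusted p = 0.411). Without either hon45 library SVR7 and AT5G46580 did not pass (edgeR adjusted p = 0.0813 and 0.0572 without replicate 1, and 0.254 and 0.196 without replicate 2), nor on FPKM (limma-trend adjusted p = 0.104 and 0.0970).

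A list of 7 genes held 5 superoxide dismutases outside the polymerase complex, the copper chaperone CCS and the chaperonin CPN20. It had 0 calls by the edgeR quasi-likelihood test and by DESeq2, with 1, CPN20, at an unadjusted p under 0.05, and a median log2 difference of 0.02. FSD1, the iron enzyme that is not part of the complex, was at 8.00 and 6.91 CPM in WT and at 8.26 and 10.2 CPM in hon45, which is 0.31 higher on the log2 scale (SE 0.15, edgeR adjusted p = 0.287). The copper/zinc enzymes CSD1 and CSD2 were far more abundant on the length-scaled FPKM values, at 1184 and 746 FPKM in WT against 12.9 FPKM for FSD3. Their log2 differences were −0.21 (SE 0.13) and 0.02 (SE 0.12). CPN20, known to activate FSD1, had 0.30 (SE 0.10, edgeR adjusted p = 0.104).

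Transcripts of the plastid genome itself were read from FPKM, since the count table holds none. Of 16 tested plastid genes 0 passed limma-trend on log2(FPKM + 1). Of the 19493 genes tested there 0.621% passed, 0.205% higher and 0.416% lower in hon45. An unadjusted p under 0.05 was seen for 1 of the 16, psbA, beside 4438 of the 19493. On this scale 0 of the 10 polymerase-associated genes were called. The 4 genes of the polymerase core had log2 differences from −0.41 to −0.37, and 0 of them were called. rpoB was at 80.4 and 79.8 FPKM in WT and at 81.3 and 46.9 FPKM in hon45, and rpoA at 90.7 and 94.0 against 94.9 and 53.3 FPKM. hon45 replicate 1 was thus at the WT level while hon45 replicate 2 was low, and rpoC1 and rpoC2 showed the same arrangement.

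In the 9 genes read by this polymerase hon45 replicate 2 was also the lowest library, but by differing amounts. psbD was at 269 and 246 FPKM in WT and at 303 and 222 FPKM in hon45. The log2 differences of psbD and psbC were 0.01 and 0.00. rbcL, the large subunit of Rubisco, was at 103 and 110 FPKM in WT and at 107 and 55.4 FPKM in hon45. psbA, the D1 protein of photosystem II, was at 237 and 336 FPKM in WT against 215 and 111 FPKM in hon45, a log2 difference of −0.87 (SE 0.30, limma-trend adjusted p = 0.161). accD, a target of the phage-type polymerase, was at 89.6 and 89.5 FPKM in WT and at 89.3 and 49.4 FPKM in hon45. The low library was the same in each of these genes, and without hon45 replicate 1, which leaves that library alone, limma-trend called 11 plastid genes lower. These libraries were made from poly(A)-selected RNA, in which most plastid transcripts are only partly retained.

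**Figure D5:**
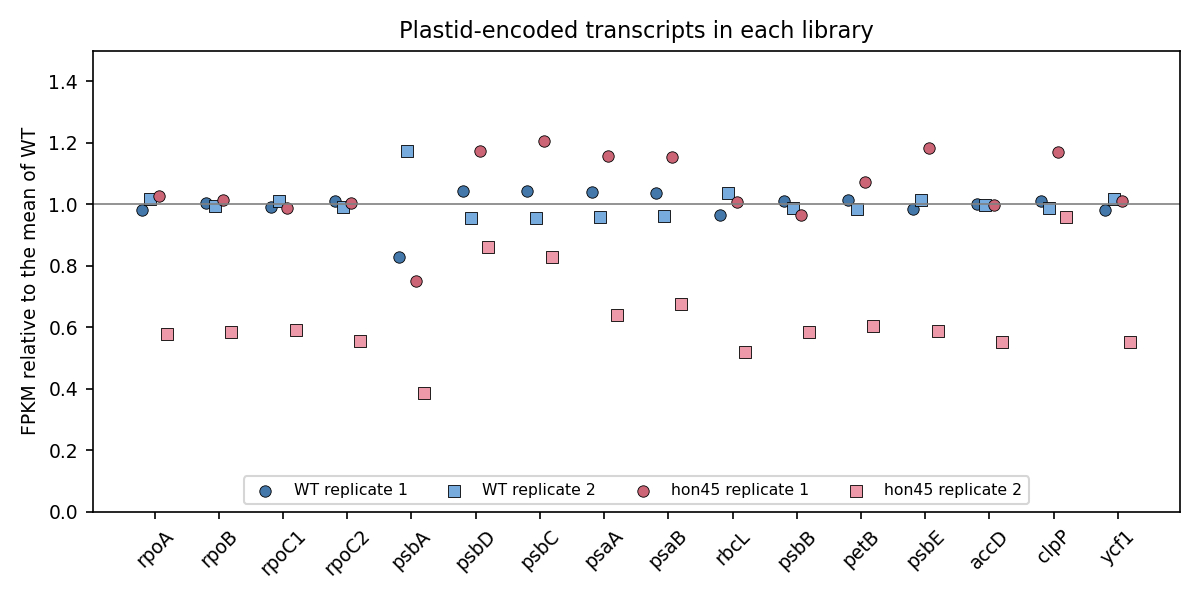
FPKM of 16 plastid-encoded genes in each library (y axis, divided by the mean of the 2 WT libraries; points are single libraries). hon45 replicate 2 is the lowest library in every gene shown, while hon45 replicate 1 is close to or above the WT points except for psbA.

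Root markers moved beside these genes, while the lists for leaf photosynthetic and dividing cells had 0 calls by the edgeR quasi-likelihood test. Of 10 root markers 5 fell and 0 rose, at a background of 1.63% lower. Both hon45 libraries lay below both WT libraries for 8 of the 10, against 26.2% of all tested genes, and the summed root level was 434 and 387 CPM in WT and 300 and 310 CPM in hon45. EXPA18, a root hair expansin, fell by 0.61 on the log2 scale (edgeR quasi-likelihood adjusted p = 0.00391), and the endodermal CASP1 fell by 0.51 (edgeR quasi-likelihood adjusted p = 0.0123). Without hon45 replicate 2, 0 root markers were called by edgeR, without hon45 replicate 1, 1 was called, and on FPKM limma-trend called 0. In 10 genes of leaf photosynthetic cells 0 were called by the edgeR quasi-likelihood test and 0 had an unadjusted p under 0.05. DESeq2 and limma-voom each called 1, RBCS1A. Both hon45 libraries lay above both WT libraries for 5 of these 10, against 23.1% of all tested genes, and below for 1. The leaf list summed to 51345 and 59116 CPM in WT and to 58766 and 61282 CPM in hon45. WT replicate 1 was the lowest library for that sum, as it was for the 10 polymerase-associated genes. In whole seedlings, fewer root cells and less root RNA per cell cannot be told apart. The part of these shifts in the differences of the polymerase-associated genes was not tested. Markers of dividing cells, where plastids are still undeveloped, had 0 calls among 7 by the edgeR quasi-likelihood test, with 2 at an unadjusted p under 0.05. The edgeR exact test called 1 of the 7, KNOLLE. Their sums were 66.4 and 65.2 CPM in WT against 70.3 and 68.4 CPM in hon45.

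The genes whose profile over the 4 libraries lay nearest to the mean profile of the 10 were searched among protein-coding genes without an overlap and with a mean of at least 5 CPM. The nearest was EIF3A, a translation initiation factor subunit, at a root mean square distance of 0.0074 on the log2 scale. SVR7 was next at 0.0089, followed by Phox2 at 0.0099, AT2G19870 at 0.0104 and AT3G28040 at 0.0128. Among the 10 genes themselves the distance to their own mean ran from 0.015 for pTAC6 to 0.12 for pTAC14. The outside genes were picked as the smallest distances of the search and the 10 were not, so the ranges are not comparable. A likeness over 4 libraries is a description of these libraries.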

How the data were processed

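Raw counts per gene were deposited by the authors, with no normalization and replicates not pooled. FPKM values were deposited per library, per the file headers, with a locus per gene. HISAT2, Bowtie2, deepTools, edgeR and the TAIR10 build are named, with no roles, per the submitters' processing notes. Which program counted, whether it used strand, and what made the FPKM is not given in the sources used here. Reads in overlapping genes may be shared: by the gene spans of RefSeq TAIR10.1, 9287 of the 29226 genes tested overlap another one, among them 3 of the 10 described, by 18 to 225 bases. Other genes named in the text also overlap another one, among them TRXz, PRIN2, MRL7-L, SIG4, pTAC11, pTAC13, CSD1, CPN20, EXPA18, CASP1, MFP1 and HON4. Printed coordinates come from the FPKM files with 1 added to the start.

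Counts were fitted in R 4.3.3 with edgeR 4.0.16 (filterByExpr, TMM, glmQLFit with its newer method, glmQLFTest, group as the only term, 2 residual degrees of freedom), with Benjamini-Hochberg adjustment over all tested genes and a threshold of 0.05. SE was taken as the size of the log2 difference divided by the root of its F statistic. Levels are TMM-scaled CPM. FPKM was tested with limma-trend (limma 3.58.1) on log2(FPKM + 1), keeping a gene if 2 libraries reached 1 FPKM; 3 genes with a failed status were left out. The fits were tested on simulated data. Gene names came from RefSeq or the FPKM files. Identifiers neither names are printed as such.

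The 10 genes, the lists of related genes and of markers, and the rule for named genes were chosen with earlier results of these data known. Named are the 10 genes, the 8 further plastid transcription genes, called genes of the other lists and the 5 nearest profiles; pTAC1, pTAC9, pTAC11, pTAC13, pTAC16, GUN1, EMB2217, FSD1, CSD1, CSD2, CPN20 and the uncalled sigma factors were added after their values were seen. As alternatives, scaling used RLE or library totals, the filter was dropped or set to 5 CPM in 2 libraries, and the test was DESeq2 1.42.0, limma-voom or the exact test of edgeR. Others were leaving out each library, a block for replicate number, a gene-length trend removed (natural spline with 4 degrees of freedom, fitted on genes from 5 or 1 CPM), FPKM, and, added after seeing the data, the older edgeR quasi-likelihood method. Chromatin immunoprecipitation samples were not analysed here.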

Additional observations from a re-analysis of the deposited data

How the results depend on the processing

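Under 16 alternatives the 10 genes lay above 0 in 160 of 160 values, from 0.09 to 0.92. Their median moved by no more than 0.13, which is the median SD of the 10 genes on the log2 scale. The median gap between the WT libraries was wider, at 0.26. With a library left out the median of the 10 genes was 0.35 to 0.58. The number of the 10 among the calls moved more: 3 with the stricter filter, 4 with library totals, 0 on FPKM and 0 to 8 with a library left out, against 6. Over all genes 724 passed with the stricter filter and 121 on FPKM, and 119 (without hon45 replicate 2) to 3836 (without WT replicate 2) with a library left out, with 435 without hon45 replicate 1, against 1199; with the length trend of genes from 5 CPM removed, 450 were higher and 546 lower. Of the 64 genes in the 8 lists of related genes 5 were called, all of these higher, against 10 with RLE size factors, 1 on FPKM and 1 to 26 with a library left out; the 26, without WT replicate 2, were 25 higher and 1 lower. The 5 of 64 stand beside 4.10% of all tested genes. With a replicate block 1767 genes and 11 of the 64 passed, 7 of the 10 genes were called with a median of 0.47, and 0 plastid-encoded genes passed. The labels do not say whether libraries with the same replicate number were grown or prepared together. Replicate 2 minus replicate 1 correlated at 0.03 between genotypes, across 22801 genes, which cannot settle this. Plastid-encoded genes had 0 to 11 calls with a library left out, the 11 resting on hon45 replicate 2 alone, with 1 call without WT replicate 1. MRL7, near 0, turned to above 0 with RLE size factors (0.0049), no count filter (0.0042), DESeq2 (0.0028), the length trend removed (0.00076 and 0.011) and WT replicate 1 or hon45 replicate 2 left out, with −0.134 to 0.105 over the 4 libraries left out in turn. SIG2 did not pass with library totals, the stricter filter, DESeq2, FPKM, the length trend of genes from 5 CPM removed, or any of WT replicate 1 and the hon45 libraries left out. The cause was not tested for these changes. At 2 libraries per genotype the calls among the 10 genes do not follow size alone: pTAC7, with more counts, was called at 0.40 and pTAC12, with fewer, was not at 0.46.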

Other observations

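Genes for maintaining plastid DNA and nucleoids gave 0 calls among 10 by the edgeR quasi-likelihood test and 0 among the 9 with an adjusted p in DESeq2, with 5 at an unadjusted p under 0.05 and 8 above 0. The filament protein MFP1, which ties nucleoids to thylakoids, had the largest log2 difference, 0.52 (SE 0.17, edgeR adjusted p = 0.0863). The DNA polymerase POLIA and the gyrase subunits GYRA and GYRB1 had 0.34, 0.33 and 0.31. Below 0 were AT2G35605 at −0.22 and RECA1 at −0.08. Regulators of light response and greening gave 0 calls among 11 by the edgeR quasi-likelihood test and by DESeq2, with 2 at an unadjusted p under 0.05. The lowest of the 11 was CGA1, at −0.33 (SE 0.16, edgeR adjusted p = 0.286). The greening factors GLK1 and GLK2 had log2 differences of −0.10 (SE 0.10) and −0.13 (SE 0.10), and HY5 of −0.03 (SE 0.11), while PIF4 had 0.35 (SE 0.12) and PHYB 0.33 (SE 0.10), with edgeR adjusted p-values of 0.0965 and 0.0647. These genes, apart from the list counts, were chosen after their values were seen.

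A further list of 7 identifiers, drawn up as fructokinases to stand beside FLN1, had 1 call by the edgeR quasi-likelihood test, at a background of 2.48% higher. Neither the files nor the gene table give these 7 a name. Only 2 of the 7 lay above 0, with a median log2 difference of −0.16 and a lowest value of −1.01. DESeq2 gave an adjusted p for 4 of the 7 and called 1. AT3G59480 rose from 6.02 and 6.93 CPM in WT to 12.1 and 11.7 CPM in hon45, by 0.88 on the log2 scale (SE 0.14; adjusted p = 0.00148, edgeR quasi-likelihood). It overlaps AT3G59490, so part of its counts is uncertain.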
